A study of Mus musculus with 15 samples.

Results

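Gas1 and 8 genes of the Hedgehog signalling pathway were followed in NIH3T3 cells, an established mouse fibroblast line of embryonic origin, after ultraviolet irradiation. The 9 genes were taken by symbol from 19069 genes in the RNA count files and from 21881 promoters in the promoter tables, and every one was found in both. They are the co-receptor genes Gas1, Boc and Cdon, the receptor gene Ptch1, the signal transducer gene Smo, the inhibitor gene Sufu and the transcription factor genes Gli1, Gli2 and Gli3. The group was selected on measured values of 1 gene: the RNA and the promoter openness of Gas1 were strongly lower after irradiation. Those Gas1 values are therefore given as a description with no test. The irradiated cells received 80 J/m2 of UV-C at 254 nm without medium, were then given fresh culture medium containing DMSO and were harvested after 6 h, and they were compared with untreated cells. The labels do not say whether untreated cells were washed, re-fed or given DMSO, so irradiation and these steps cannot be told apart. RNA was sequenced from 3 irradiated and 3 untreated libraries. Open chromatin (FAIRE-seq, which recovers DNA that is poorly crosslinked to protein) and H3K27ac (histone H3 acetylated at lysine 27, found at active promoters and enhancers) were each measured in 2 irradiated and 2 untreated samples, pooled in the promoter tables, with 1 input DNA sample.

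Hedgehog ligands bind the membrane protein PTCH1, which in their absence keeps the membrane protein SMO inactive. When ligand is bound, SMO acts in the primary cilium to release the GLI transcription factors from their inhibitor SUFU, GLI2 acting mainly as an activator and GLI3 mainly as the source of a repressor. Gli1 and Ptch1 are themselves target genes of the pathway. GAS1, a membrane protein held by a lipid anchor, binds ligand and supports signalling, as do BOC and CDON, a pair of related membrane proteins, and it was first described in NIH3T3 cells as the product of a gene expressed in growth arrest. NIH3T3 cells are widely used to study Hedgehog signalling because they respond to added ligand.

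The RNA libraries held 14211528 to 22032701 counts, and 14925 genes, among them all 9 described here, had enough counts to test. All 8 fibroblast markers exceeded 1 CPM (counts scaled to library size after TMM normalization) in every library. Their summed level, led by collagen genes and Vim, was 15300 to 27000 CPM in irradiated and 14800 to 18800 CPM in untreated libraries. Single markers went both ways. Vim, Thy1 and S100a4 were higher in every irradiated library than in every untreated one, and for the collagen genes and Pdgfrb the groups overlapped. The growth factor receptor gene Pdgfra was lower in every irradiated library than in every untreated one. It was at 214, 404 and 413 CPM in irradiated and 466, 1254 and 1111 CPM in untreated replicates 1 to 3. For Pdgfra, as for Gas1, replicate 1 was the lowest library of both groups. Whether the Pdgfra values bear on the other results was not tested, and fits without replicate 1 are given below. Epithelial markers summed to 4.83 to 7.81 CPM in irradiated and 5.1 to 7.31 CPM in untreated libraries, endothelial markers to 1.24 to 3.77 CPM in irradiated and 2.23 to 3.18 CPM in untreated libraries, and neural markers to 4.34 to 5.69 CPM in irradiated and 4.23 to 6.93 CPM in untreated libraries. The leukocyte pair Ptprc and Cd68 summed to 11.8 to 12.7 CPM in irradiated and 5.46 to 5.93 CPM in untreated libraries, which followed Cd68, and its part in the results was not tested. Replicate 1 was the library farthest from the others of its group, with a chi-square of its counts, divided by the degrees of freedom, of 52.45 and 54.64 against the other irradiated libraries and of 41.04 and 44.17 against the other untreated libraries. The other pairs were at 5.452 (irradiated) and 16.81 (untreated). The labels do not say whether the libraries came from separate cultures, so the p-values speak only of how these libraries differ.

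RefSeq promoter windows of build GRCm38.p6, running from 250 bases before to 50 bases after a transcription start, were matched by symbol for 7 of the 9 genes, all but Boc and Gli1. They are shown for Gas1, which had the strongest loss of promoter openness of the group, for Ptch1, which had the strongest loss of promoter acetylation, and for Sufu, whose RNA fell while its promoter was among the most open. Capitals mark matches to the GC box (GGGCGG or its reverse complement CCGCCC) and the CCAAT box (CCAAT or ATTGG), none of which overlap. The windows lie at chr13:60177486-60177785 on the minus strand (Gas1), chr13:63565686-63565985 on the minus strand (Ptch1) and chr19:46396646-46396945 on the plus strand (Sufu). Each is written 5′ to 3′ on the strand of its gene.
Gas1: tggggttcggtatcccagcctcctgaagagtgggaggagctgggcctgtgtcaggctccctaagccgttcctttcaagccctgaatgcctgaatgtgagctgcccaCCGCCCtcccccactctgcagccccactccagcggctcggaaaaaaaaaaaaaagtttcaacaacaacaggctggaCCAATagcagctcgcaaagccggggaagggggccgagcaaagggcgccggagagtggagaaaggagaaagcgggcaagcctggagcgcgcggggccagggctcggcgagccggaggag
Ptch1: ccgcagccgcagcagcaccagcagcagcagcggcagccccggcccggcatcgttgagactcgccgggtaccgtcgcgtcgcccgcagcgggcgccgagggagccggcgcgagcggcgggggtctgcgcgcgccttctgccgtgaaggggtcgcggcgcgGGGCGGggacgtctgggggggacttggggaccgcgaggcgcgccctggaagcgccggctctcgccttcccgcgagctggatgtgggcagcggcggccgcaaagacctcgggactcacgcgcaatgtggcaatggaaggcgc
Sufu: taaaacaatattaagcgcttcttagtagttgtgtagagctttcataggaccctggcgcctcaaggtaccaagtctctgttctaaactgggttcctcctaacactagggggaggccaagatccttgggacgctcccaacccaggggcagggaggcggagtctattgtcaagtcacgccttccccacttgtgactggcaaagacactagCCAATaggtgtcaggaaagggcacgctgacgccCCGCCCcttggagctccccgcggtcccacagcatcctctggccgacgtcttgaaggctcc

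The Gas1 window has a CCAAT box at position −68 and a GC box at position −144, counted from the start base as 0. The Sufu window holds the same pair of motifs, at positions −43 and −10, and the Ptch1 window holds a GC box alone, at position −91. Of the 7 windows 5 hold a GC box and 3 a CCAAT box, against 35.7% and 37.4% of 32851 RefSeq windows. The GLI site (GACCACCCA), the E-box (CACGTG), the AP-1 site (TGANTCA) and the TATA box (TATAAA), searched on both strands, had no match in these 7 windows and are held by 0.253%, 7.15%, 7.81% and 13.6% of all windows. Ptch1 was the richest in CpG, with 47 in 300 bases, against 17 in Gas1, 12 in Sufu and a median of 7 over all windows. The Cdon window is poor in CpG, with 3, and like the Ptch1 window it is placed around a start inside the annotated gene. The promoter tables give no positions, so it is not known how far these windows overlap the 1000 bp windows in which reads were counted.

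Gas1 RNA was lower in every irradiated library than in every untreated library. It was at 52.0, 87.2 and 83.2 CPM in irradiated replicates 1, 2 and 3, against 246, 557 and 469 CPM in untreated replicates 1, 2 and 3. The means were 74.1 ± 19.3 CPM in irradiated and 424 ± 160 CPM in untreated cells (SD, n = 3 each), 5.72-fold lower after UV, and the log2 fold change of −2.52 ± 0.29 (SE) was at position 10 from the lowest among all tested genes. Replicate 1 was the lowest library of both groups, and the untreated libraries differed among themselves by up to 2.26-fold. Between libraries of the same number the log2 ratio was −2.24, −2.68 and −2.49. Without replicate 1 of both groups the log2 fold change was −2.63. In RNA from whole cultures, fewer cells that express a gene and less RNA per cell cannot be told apart, here and in all values that follow.

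Openness of the Gas1 promoter was used to choose the gene and its acetylation was not, so they are set side by side only as a description. FAIRE reads in the 1000 bp promoter window numbered 30 in the irradiated pool and 139 in the untreated pool, over 19 reads of input. The authors' log2 enrichment over input was 0.82 in irradiated and 2.44 in untreated cells, and the difference of −1.62 was at position 2 from the largest loss among promoters of the 14925 tested genes. Among these promoters 64.6% were less open than Gas1 in irradiated cells, and 97.6% in untreated cells. H3K27ac, which played no part in choosing the gene, was counted in 339 reads in the irradiated pool and 407 reads in the untreated pool. Its log2 enrichment was 3.59 in irradiated and 3.85 in untreated cells, a difference of −0.26, and 32.9% of promoters had a lower difference. Adjusted for the authors' pool scales, the read ratio of irradiated over untreated cells was 0.269 for FAIRE. No interval is given for it, because the gene was chosen for this fall. For H3K27ac the ratio was 0.826 (95% exact binomial interval 0.713 to 0.956). The read-ratio intervals, here and below, cover counting error only. The pools have no spread between replicates, so none of the promoter differences has a test. Among the 208 promoters with a FAIRE loss of at least 1, the median H3K27ac difference was −0.52 and 65.9% had a lower one than Gas1.

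**Figure D1:**
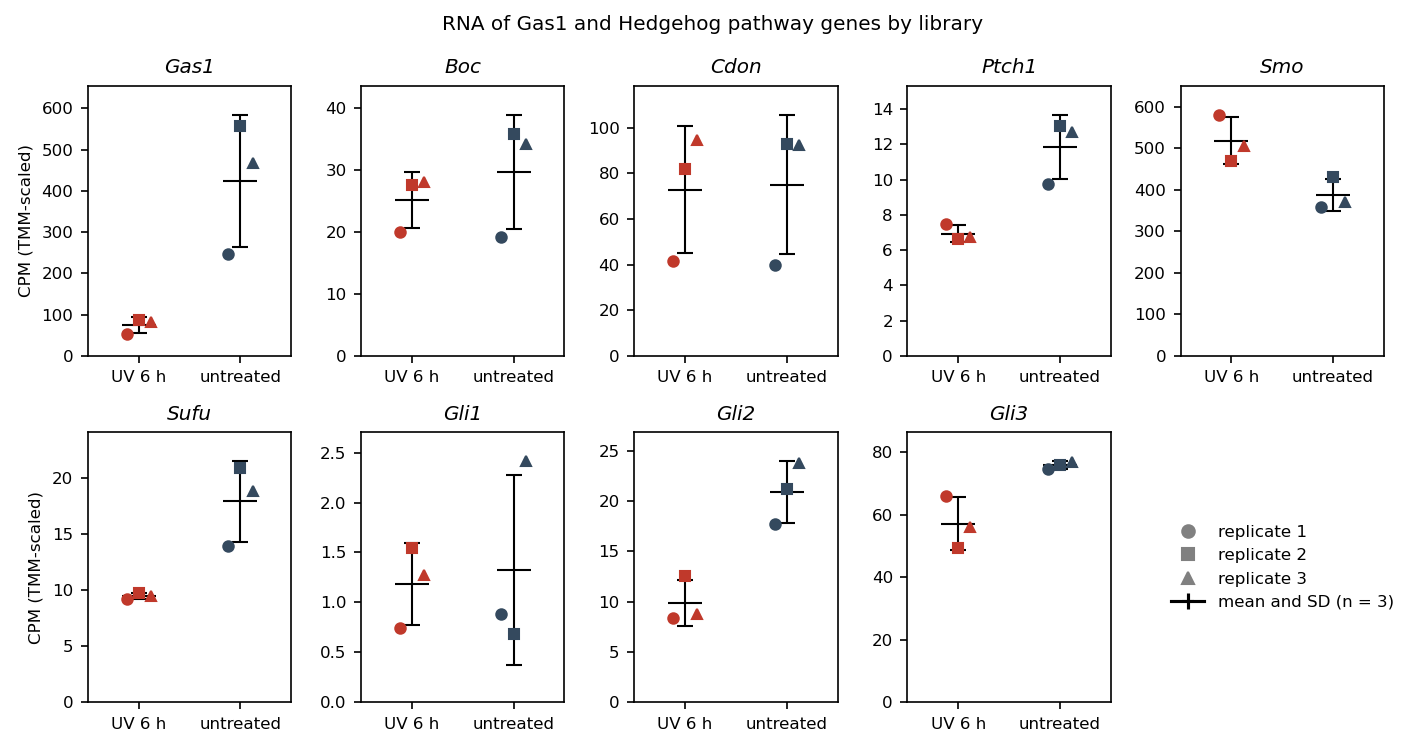
RNA of the 9 genes in each library, as TMM-scaled CPM, with irradiated libraries left of untreated ones, symbols for the replicate number and bars for the mean and SD (n = 3). Gas1 lies at 52.0 to 87.2 CPM in irradiated and 246 to 557 CPM in untreated libraries, and the groups also do not overlap for Ptch1, Smo, Sufu, Gli2 and Gli3.

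The other co-receptor genes, Boc and Cdon, did not pass the test in RNA. Boc, which encodes an immunoglobulin-family membrane protein, was at 19.99, 27.5 and 28.0 CPM in irradiated replicates 1 to 3 and at 19.1, 35.7 and 34.2 CPM in untreated replicates 1 to 3. The groups overlapped, and the log2 change was −0.24 ± 0.22 (SE; adjusted p = 0.591 in the quasi-likelihood test of edgeR with Benjamini-Hochberg adjustment over all tested genes). Cdon, which encodes its closest relative, was at 41.4, 82.0 and 94.7 CPM in irradiated and 39.7, 92.8 and 92.4 CPM in untreated replicates 1 to 3, and the log2 fold change was −0.05 ± 0.30 (SE, edgeR adjusted p = 0.973). In Gas1, Boc and Cdon alike, replicate 1 was the lowest library of both groups. Untreated replicate 1 was the lowest untreated library for 8 of the 9 genes, all but Gli1, and for 29.6% of all tested genes.

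The Boc promoter was less open in the irradiated pool, while its RNA was not called. FAIRE reads there were 14 in the irradiated and 51 in the untreated pool, and the log2 enrichment was 0.07 in irradiated and 1.08 in untreated cells. The difference of −1.01 was just past the size of 1 used to count a loss. H3K27ac reads at Boc were 111 in the irradiated and 175 in the untreated pool, a log2 difference of −0.60 (read ratio 0.629, interval 0.491 to 0.802). At Cdon the reads were few in both assays, with 10 irradiated and 22 untreated FAIRE reads and 7 irradiated and 15 untreated H3K27ac reads over 15 of input. Its differences were −0.43 and −0.44, and both read-ratio intervals included 1, so a change of the Cdon promoter window was not detectable at this depth.

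Ptch1, the receptor gene and a target of the pathway, and Sufu, the inhibitor gene, fell in RNA, while Smo did not pass the test. Ptch1 was at 7.49, 6.60 and 6.72 CPM in irradiated and 9.74, 13.1 and 12.7 CPM in untreated replicates 1 to 3. The groups did not overlap, and the log2 fold change was −0.77 ± 0.20 (SE, edgeR adjusted p = 0.0104). This call was lost without irradiated replicate 3 (edgeR adjusted p = 0.0655), untreated replicate 2 (0.0695) or untreated replicate 3 (0.0653). Sufu was at 9.22, 9.77 and 9.498 CPM in irradiated and 13.9, 20.9 and 18.8 CPM in untreated replicates 1 to 3, and changed by −0.91 ± 0.19 on the log2 scale (SE, edgeR adjusted p = 0.00228). The irradiated libraries lay close together for Sufu, with a highest-to-lowest ratio of 1.06, against 1.498 among untreated libraries. Smo was at 580, 469 and 507 CPM in irradiated and 360, 431 and 370 CPM in untreated replicates 1 to 3. Every irradiated library was above every untreated one, yet the log2 fold change of 0.42 ± 0.20 (SE) did not pass (edgeR adjusted p = 0.170), except without untreated replicate 2, where it was 0.62 (edgeR adjusted p = 0.0243).

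At the promoters of Ptch1, Sufu and Smo enrichment was lower in the irradiated pool in both assays, though the FAIRE read-ratio intervals of Ptch1 and Sufu included 1. The median promoter was also lower in FAIRE, at −0.27. A lower FAIRE difference than theirs was found at 56.2% of promoters for Ptch1, 40.2% for Sufu and 7.25% for Smo. Ptch1 had the largest acetylation difference of the group, with 164 H3K27ac reads in the irradiated and 365 in the untreated pool. Its log2 enrichment was 2.48 in irradiated and 3.56 in untreated cells, a difference of −1.09, and 3.23% of promoters had a lower one. FAIRE reads at Ptch1 were few, 16 in the irradiated and 25 in the untreated pool, and the read ratio of 0.797 had an interval of 0.398 to 1.55, which also holds the H3K27ac read ratio of 0.446. Sufu was among the most open promoters, with 141 FAIRE reads in the irradiated and 211 in the untreated pool. There 99.7% of promoters were less open in irradiated cells and 98.9% in untreated cells, and the FAIRE difference was −0.36 (read-ratio interval 0.668 to 1.04). The H3K27ac difference at Sufu was −0.43, with 197 irradiated and 270 untreated reads. At Smo, whose RNA was not lower, FAIRE reads were 39 in the irradiated and 90 in the untreated pool, a log2 difference of −0.76, and the H3K27ac difference was −0.30.

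Of the GLI transcription factor genes Gli2 fell, Gli3 was lower without passing the test, and Gli1 had few counts. Gli2, which encodes the main activator, was at 8.36, 12.5 and 8.80 CPM in irradiated and 17.7, 21.2 and 23.8 CPM in untreated replicates 1 to 3. Its log2 fold change of −1.08 ± 0.20 (SE, edgeR adjusted p = 0.000865) was the lowest of the 8 genes other than Gas1, and its mean was 2.11-fold lower after UV. Gli3, which encodes the main repressor, was at 66.0, 49.4 and 56.2 CPM in irradiated and 74.7, 76.0 and 77.1 CPM in untreated replicates 1 to 3. Its groups did not overlap, and the log2 fold change was −0.41 ± 0.18 (SE, edgeR adjusted p = 0.129). It passed with library totals in place of TMM scaling (edgeR adjusted p = 0.000955), when genes were kept from 1 CPM in 3 libraries (0.0399), without irradiated replicate 1 (0.0152) and without replicate 1 of both groups (0.0317), the last chosen after seeing the data. Gli1, a target and an activator of the pathway, had 12, 23 and 22 counts in irradiated and 17, 15 and 63 counts in untreated replicates 1 to 3. Untreated replicate 3 alone was high, the groups overlapped, and the log2 fold change of −0.17 ± 0.58 (SE, edgeR adjusted p = 0.949) leaves a wide range of changes undetectable at this depth.

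The Gli promoters differed widely in acetylation. Gli3 was the most acetylated of the 9 promoters, at a log2 enrichment of 4.22 in irradiated and 4.38 in untreated cells, and 96.2% of promoters were lower than it in untreated cells. Its H3K27ac difference of −0.17 was the smallest of the group, while its FAIRE difference was −0.65, from 24 irradiated and 52 untreated reads. Gli2 had 50 irradiated and 63 untreated FAIRE reads, a read ratio of 0.989 with an interval of 0.668 to 1.46. Its H3K27ac enrichment was 2.90 in irradiated and 3.31 in untreated cells. Gli1 had little of either mark, with 20 irradiated and 21 untreated FAIRE reads over 35 of input. Its H3K27ac reads numbered 24 in the irradiated and 51 in the untreated pool, a log2 difference of −0.75 (read ratio 0.467, interval 0.275 to 0.772). It was the only one of the 9 promoters whose FAIRE difference was above 0, at 0.14.

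**Figure D2:**
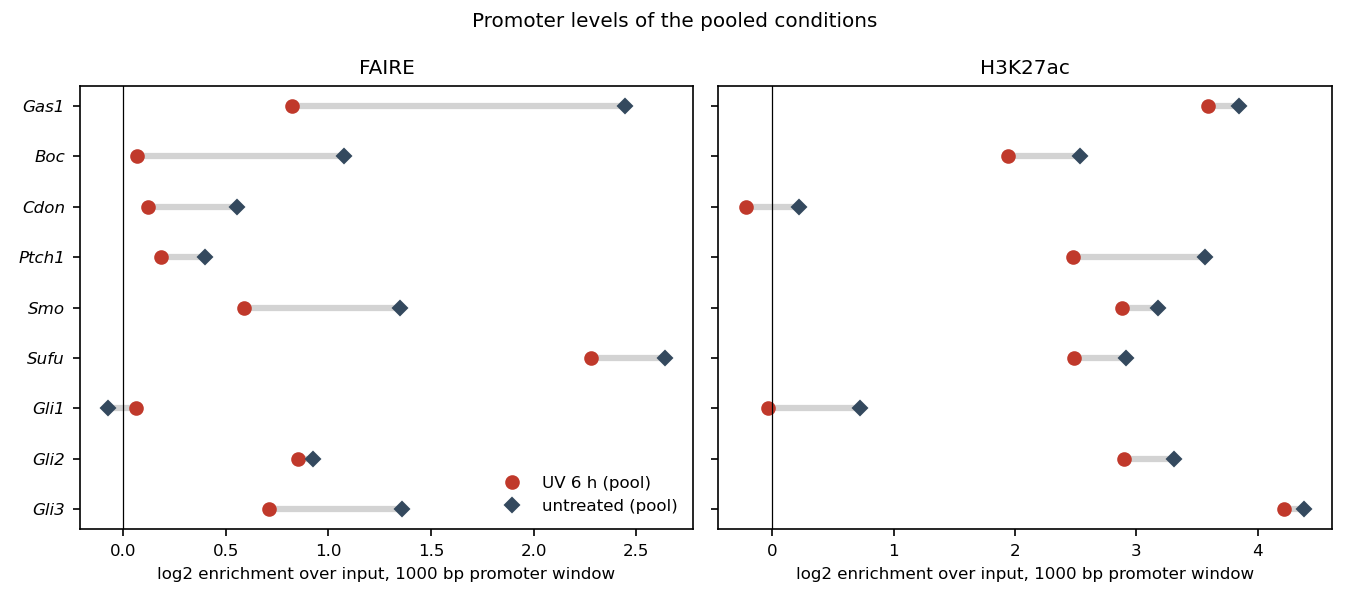
Log2 enrichment over input of FAIRE and H3K27ac reads in the 1000 bp promoter window of each gene, for the irradiated pool (circles) and the untreated pool (diamonds), joined by a bar. The Gas1 pools are 1.62 apart in FAIRE, the value used to choose the gene, and 0.26 apart in H3K27ac. The Ptch1 pools are 0.21 apart in FAIRE and 1.09 apart in H3K27ac.

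Counted over the 8 genes other than Gas1, 3 fell in RNA (Ptch1, Sufu and Gli2), 0 rose and 5 were not called. Of all tested genes 12.4% fell and 7.7% rose. The groups did not overlap, with irradiated libraries lower, for 4 of the 8 genes, against 17.3% of tested genes, and with irradiated libraries higher for 1, against 16.6%. The median log2 fold change of the 8 genes was −0.32, and that of all tested genes was −0.01. The genes were proposed with this contrast in view, so these counts are given without reading a result from them. In the authors' deposited table of 2068 genes, which reaches an adjusted p of 0.0999, Gas1 was listed with a log2 fold change of −2.51. The authors' deposited table also listed Sufu (−0.90, adjusted p = 0.0241) and Gli2 (−1.05, adjusted p = 0.00383), and of the 9 genes it listed only these 3.

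With Gas1, whose openness was used to choose the group, left out, FAIRE differences were below 0 for 7 of 8 promoters, where 76.7% of all promoters were below 0 and the median promoter was at −0.27. Of the 8 promoters other than Gas1, 5 were below that median, and a loss of at least 1 was found at 1, Boc, against 1.39% of promoters. With differences centred on the median promoter, Boc came to −0.74 and Ptch1 and Gli2 to 0.06 and 0.20. H3K27ac differences were below 0 at all 9 promoters, where 55.7% of all promoters were below 0. All of the 8 promoters other than Gas1 were below the median H3K27ac difference of −0.06, and their median was −0.43. A loss of H3K27ac of at least 1 was found at 1 of the 9, Ptch1, against 4.26% of promoters. No promoter of the 9 gained 1 or more, against 0.0067% of promoters in FAIRE and 2.93% in H3K27ac. Gas1, chosen for its RNA and FAIRE values, Gli2 and Sufu had the lowest RNA fold changes. Gas1, Boc and Smo had the largest FAIRE differences, and Ptch1, Gli1 and Boc the largest in H3K27ac. By H3K27ac read ratio Cdon (0.463, from few reads) came between Ptch1 (0.446) and Gli1 (0.467), ahead of Boc (0.629). The FAIRE read-ratio intervals of Boc (0.175 to 0.627), Smo (0.361 to 0.794) and Gli3 (0.339 to 0.949) overlapped. The order of such genes is therefore not settled beyond counting error.

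**Figure D3:**
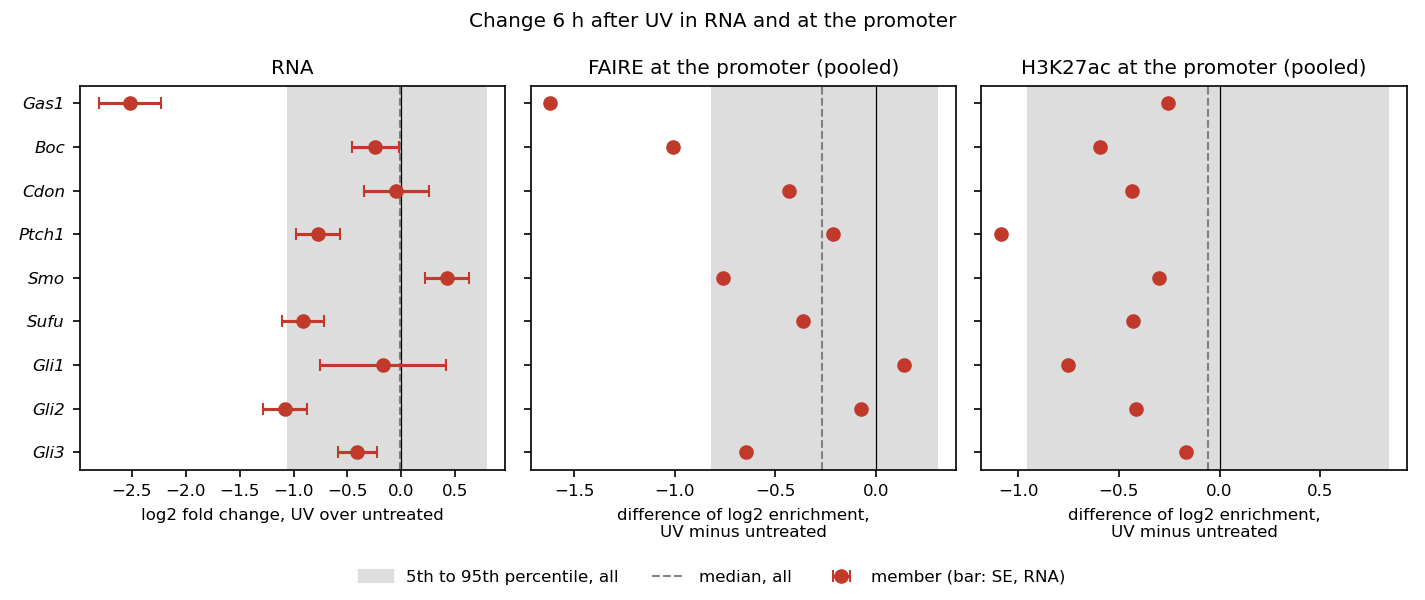
Change after UV of each gene in RNA (log2 fold change, bars for the SE) and at its promoter in FAIRE and H3K27ac (difference of log2 enrichment between pools), with grey bands for the 5th to 95th percentile and dashed lines for the median of all tested genes. Gas1 is outside the band in RNA and FAIRE, the measures used to choose it, and inside the band in H3K27ac at −0.26. Every H3K27ac point is left of the median of −0.06.

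Other genes of the pathway were taken in 7 lists, of which 75 genes are not among the 9, 72 were in the files and 64 were tested. Of these 64 genes 4 rose, 9 fell and 51 were not called, with a median log2 fold change of 0.00. Of all tested genes 7.7% rose and 12.4% fell, with a median of −0.01, and no list was tested against that background. The rises numbered 14 without untreated replicate 2, 9 without untreated replicate 3, 8 without untreated replicate 1, 7 without irradiated replicate 2 and 8 when genes were kept from 1 CPM in 3 libraries, and the falls 14 with library totals alone. Calls over all tested genes moved in the same fits, where the rises, 1149 as reported, numbered 1941, 1503, 1796, 1387 and 1590 in that order, and the falls, 1854 as reported, 3739. Of 4 tested genes for ligands and their release none passed: Hhat, which encodes the enzyme that attaches palmitate to the ligands, averaged 20.8 ± 6.82 CPM in irradiated and 18.8 ± 2.93 CPM in untreated cells, and Scube2, which encodes a protein that helps release the ligand, averaged 0.759 ± 0.525 CPM in irradiated and 1.00 ± 0.371 CPM in untreated cells (SD, n = 3 each). The ligand gene Ihh had no library above 1.11 CPM, and Shh was too low to test. Of 11 negative regulators 3 fell and 0 rose, though 3 rose without untreated replicate 2. These were Btrc, which encodes the ubiquitin ligase subunit that directs GLI processing (17.4 ± 3.11 CPM in irradiated and 33.7 ± 1.47 CPM in untreated cells, SD, n = 3 each; log2 fold change −0.95, edgeR adjusted p = 0.000903), the ciliary kinesin gene Kif7 (−0.86, edgeR adjusted p = 0.00161) and the kinase gene Gsk3b (−0.63, edgeR adjusted p = 0.0257). The call of Gsk3b was lost with DESeq2, with no low-count filter and without irradiated replicate 2 or 3 or untreated replicate 1 or 2 (edgeR adjusted p = 0.106, 0.171, 0.0653 and 0.0684). The Gsk3b promoter was lower in both assays, with 64 irradiated and 196 untreated FAIRE reads (log2 difference −1.24) and an H3K27ac difference of −1.13. The other called genes of this list moved less: Btrc by −0.46 in FAIRE and −0.72 in H3K27ac, and Kif7 by −0.03 in each. A loss of at least 1 was found at 1 of the 11 promoters in FAIRE and 1 in H3K27ac, against 1.39% and 4.26% of promoters.

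Of 15 tested genes of the primary cilium, in which the pathway operates, 1 rose and 0 fell. With library totals alone 2 fell. The rises numbered 5 without untreated replicate 2, 4 without untreated replicate 3 and 2 without untreated replicate 1 or irradiated replicate 2. They numbered 3 when genes were kept from 1 CPM in 3 libraries, against 1 as reported. The gene that rose as reported was Dync2h1, which encodes the motor of transport towards the base of the cilium. It was at 77.6 ± 16.9 CPM in irradiated and 43.0 ± 1.31 CPM in untreated cells (SD, n = 3 each), with a log2 fold change of 0.85 (edgeR adjusted p = 0.00355). Of 7 tested co-factor genes, which include glypicans of the cell surface but also a kinase and arrestins, 1 rose. This was the glypican gene Gpc4 (log2 fold change 0.66, edgeR adjusted p = 0.0149). Its call was lost with library totals alone (edgeR adjusted p = 0.0710) and without irradiated replicate 3 (0.133). In that list 3 genes rose without any 1 of the untreated libraries or when genes were kept from 1 CPM in 3 libraries, and 2 without irradiated replicate 2. Of 17 tested target genes of the GLI factors other than Ptch1 and Gli1, 2 rose and 5 fell, at a median of −0.10, where 7.7% of all tested genes rose and 12.4% fell. The transcription factor gene Osr1 fell most, to 34.96 ± 7.25 CPM in irradiated cells, against 90.0 ± 9.07 CPM in untreated cells (SD, n = 3 each; log2 fold change −1.36, edgeR adjusted p = 6.96e-05). The transcription factor genes Snai1 (−1.28), Mycn (−1.25), Foxf2 (−1.12) and Nr2f2 (−0.73) also fell, while Foxl1, another forkhead factor gene (1.07, edgeR adjusted p = 0.00268), and Igfbp6, which encodes a binding protein of insulin-like growth factors (0.82, edgeR adjusted p = 0.00628), rose. The target Hhip, a ligand-trap gene, averaged 1.61 ± 1.16 CPM in irradiated cells and 1.60 ± 0.966 CPM in untreated cells (SD, n = 3 each). Of the promoters of these 17 target genes, 0 had a loss of at least 1 in FAIRE and 0 in H3K27ac, against 1.39% and 4.26% of promoters.

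The relatives of Gas1 by name and by protein family were examined in the same way. Of 8 other tested genes in the growth arrest list 1 fell, where 12.4% of all tested genes fell. This was the myelin protein gene Pmp22, also known as Gas3. It averaged 43.2 ± 1.70 CPM in irradiated and 84.2 ± 19.4 CPM in untreated cells (SD, n = 3 each), with a log2 fold change of −0.96 (edgeR adjusted p = 0.00166). The other genes of the list, which include Gas2, Gas6 and Gas7, lay between −0.31 and 0.46 and did not pass the test. The upper end was Ddit3, which is on the list but is not a growth arrest specific gene by name. Without irradiated replicate 1 a second gene of the list fell, and 1 rose without irradiated replicate 1 or 2 or untreated replicate 1 or 2. At the Pmp22 promoter H3K27ac reads were 138 in the irradiated and 582 in the untreated pool, a log2 difference of −1.96, and the FAIRE difference was −0.84. Of the 8 promoters of this list, 0 had a FAIRE loss of at least 1 and 3 an H3K27ac loss, against 1.39% and 4.26% of promoters. The GFR alpha receptors resemble GAS1 in sequence and bind ligands of the GDNF family together with RET. Of 4 tested genes of that family, Gfra1, Gfra2, Ret and Gdnf, none passed the test, with log2 fold changes of −0.38 to 0.08.

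**Figure D4:**
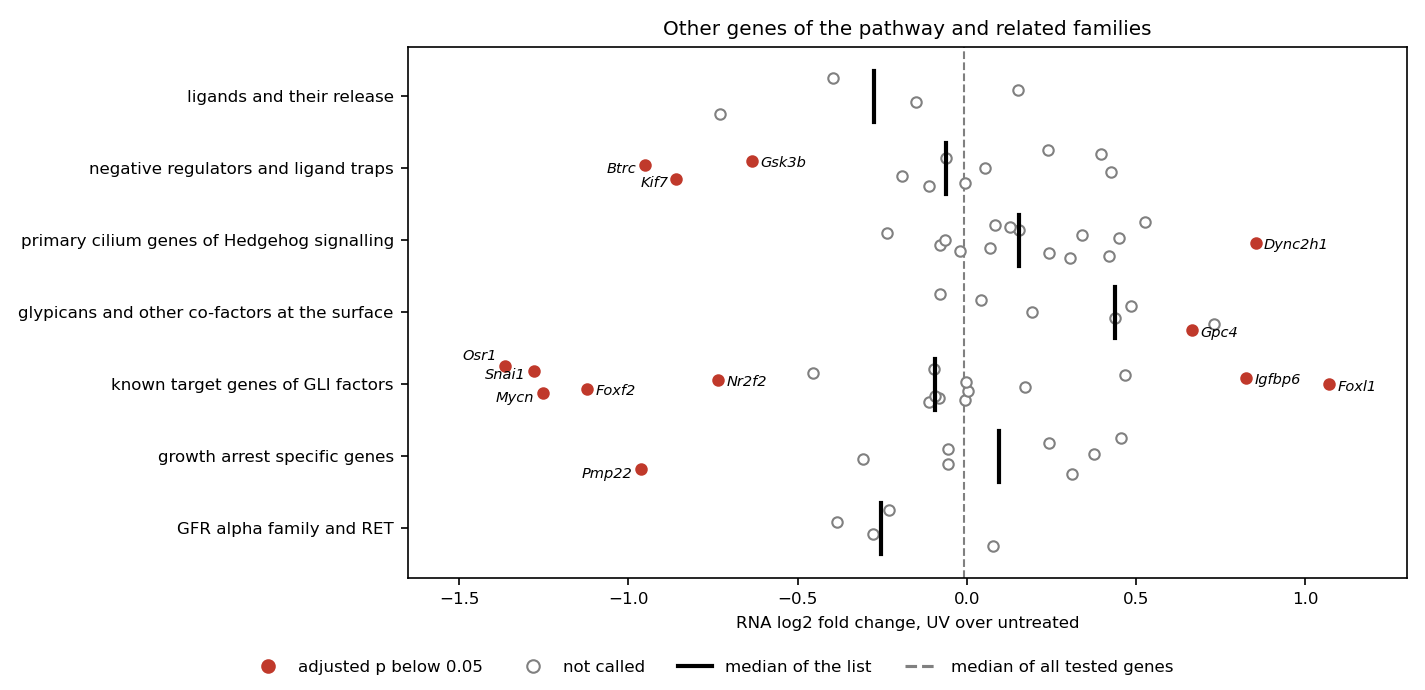
RNA log2 fold change after UV of the tested genes in each list, the 9 genes themselves left out, with filled points for an adjusted p below 0.05, black bars for the list median and a dashed line for the median of all tested genes (−0.01). Called genes among the GLI targets run from Osr1 at −1.36 to Foxl1 at 1.07.

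Among 9624 other genes averaging 5 CPM or more, the 5 whose centred log2 CPM over the 6 libraries lay nearest to that of Gas1 were Has2, Rasl11a, Ralgds, Trib2 and Cdc42ep2. Has2, which encodes a hyaluronan synthase, was the nearest, with a root mean square difference of 0.20 on the log2 scale and a mean of 34.5 ± 5.58 CPM in irradiated and 168 ± 74.7 CPM in untreated cells (SD, n = 3 each). The differences of Rasl11a, a small GTPase gene, and Ralgds, an exchange factor gene for Ral GTPases, were 0.22 and 0.29. Those of the pseudokinase gene Trib2 and of Cdc42ep2, which encodes an effector of the GTPase CDC42, were 0.30 and 0.33. They were chosen for this profile, so their RNA is a description and no result. At their promoters the FAIRE difference was −0.67 at Has2, −0.36 at Rasl11a, −0.52 at Ralgds (from 1 irradiated and 11 untreated reads), −0.87 at Trib2 and −0.26 at Cdc42ep2, against −1.62 at Gas1 and −0.27 at the median promoter. All 5 were below 0, where 76.7% of all promoters were below 0. None reached a loss of 1, which 1.39% of promoters did. The H3K27ac difference was 0.23 at Has2, −0.91 at Rasl11a, −0.22 at Ralgds, −0.70 at Trib2 and −0.08 at Cdc42ep2, against −0.26 at Gas1.

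**Figure D5:**
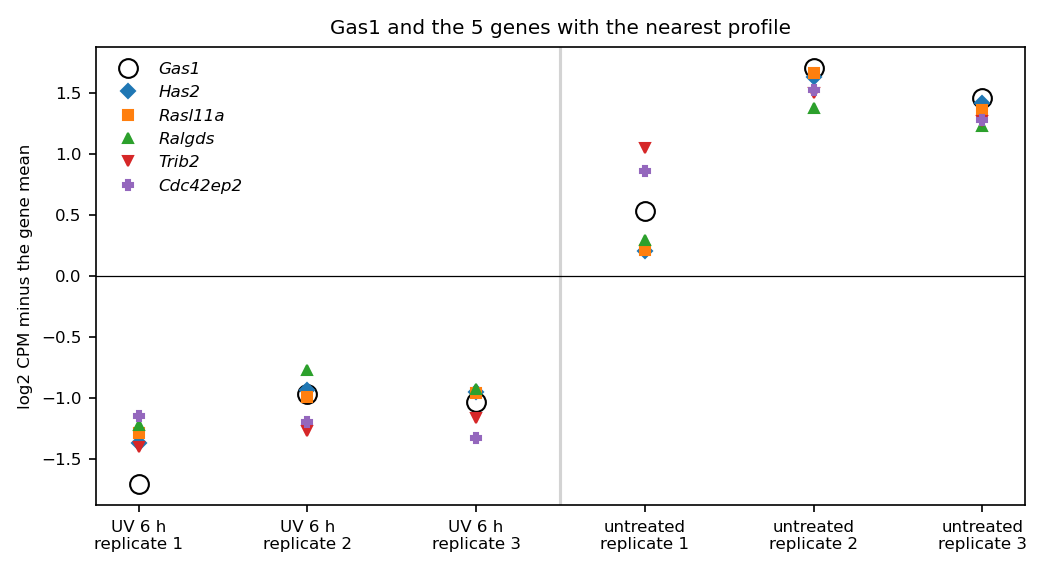
Log2 CPM in each library, minus the mean of the gene over the 6 libraries, for Gas1 (open circles) and the 5 genes with the nearest profile. The 5 genes were chosen to lie near Gas1, so their shared position below 0 in the irradiated and above 0 in the untreated libraries, and their low untreated replicate 1, follow from that choice.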

How the data were processed

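RNA, FAIRE and H3K27ac values came from processed tables, and no reads were aligned here. The submitters' processing notes name build mm9 and the tools Bowtie 0.12.9, TopHat, DESeq2 and MACS2, without role or settings. The RNA values are raw read counts per gene and library, deposited unscaled by the authors. The promoter tables give, per the file headers, read counts per 1000 bp window for pooled conditions and input. They also give the authors' log2 enrichment, which equals log2 of (reads + 16) less log2 of (scale × input reads + 16). The scales were 0.528 (irradiated) and 0.657 (untreated) for FAIRE and 0.712 (irradiated) and 0.706 (untreated) for H3K27ac. Columns headed DMSO were taken as irradiated, because the labels' protocol gives DMSO to irradiated cells, and 4 value columns of another condition were not used. The p-value column of the authors' deposited comparison was used only where named.

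RNA counts were tested with edgeR 4.0.16 in R 4.3.3 (filterByExpr, TMM, quasi-likelihood F test, Benjamini-Hochberg over all tested genes, threshold 0.05), and the steps were tested on simulated data. There 61 of 103 genes given a log2 change of size 1 were recovered (59.2%), and 89 of 97 given a change of size 2 (91.8%). A gene that was not called may thus still have changed. DESeq2 1.42.0 was an alternative. The standard error is the log2 fold change over the square root of F. A promoter loss is a difference of −1 or below. Named genes were the 9, up to 4 called genes per list by smallest p or 2 where none was called, and the 5 nearest profiles. Mycn, Nr2f2, Igfbp6, Ihh, Hhip, the cell type markers named singly and the relatives of Gas1 were added after their values were seen. The genes and lists were chosen with earlier results of these data known. Peaks were not tied to genes, since the promoter tables give no positions.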

Additional observations from a re-analysis of the deposited data

How the results depend on the processing

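The 3 falls in RNA (Ptch1, Sufu and Gli2) among the genes other than Gas1 numbered 2 to 4 in the fits that left out libraries, and 0 rises became 1 (Smo) without untreated replicate 2. The called list genes, 4 higher and 9 lower, were 8 higher with at least 1 CPM in 3 libraries, 14 lower with library totals alone, which moved the median of all tested genes from −0.01 to −0.24, and 3 to 14 higher in the fits that left out libraries. The RNA change of Gas1 ran from −2.72 to −2.13, which is a description, since the gene was chosen for its fall in these same libraries. Promoter losses of at least 1 in FAIRE, at 1 gene other than Gas1, were at 0 with centring or quantile normalization and at 3 with a threshold of 0.58. Those in H3K27ac, at 1 gene, were at 3 with 1 read added in place of 16, with read ratios without input and with the threshold of 0.58. The cause was not tested. Whether the replicate number pairs the libraries was not clear. Correlations of deviations between libraries of the same number were 0.155, −0.58 and 0.504 for numbers 1, 2 and 3. The highest with a library of another number were 0.53, 0.683 and −0.246, so only number 3 lay nearest to its own number. With a replicate block the 3 falls remained 3 and the list counts were 4 higher and 9 lower, while calls over all tested genes were 1276 higher and 2067 lower. Peaks within 50 kb or 20 kb were not run, because the promoter tables give no positions.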
